A study of Mus musculus with 18 samples.

Results

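The bipolar cell genes described here are Vsx1, Isl1, Cabp5, Scgn, Prkca, Trpm1, Pcp2, Grm6 and Lrtm1. They were followed on 18 Affymetrix arrays of whole mouse retina after an intravitreal injection of a glucocorticoid or of vehicle. Their members are the probe sets whose platform annotation names only 1 of these symbols, which gave 19 of the 45101 probe sets, for 8 of the 18193 genes that such probe sets name. The 8 genes had these probe sets: Trpm1 had 4 probe sets, Prkca and Pcp2 had 3 each, Vsx1, Isl1, Cabp5 and Lrtm1 had 2 each, and Scgn had 1. The ninth gene, Grm6, encodes the receptor itself; no probe set used here is named for it alone, and it was not analysed.

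All animals were male C57BL6/J mice, 2 months old, kept on a daily light and dark cycle and injected once into the eye at day 0. The 6 groups, with 3 biological replicates each, were retinas taken at day 30 after DEX (dexamethasone), TAA (triamcinolone) or BSS (the balanced salt vehicle), and retinas taken at day 7 after DEX, TAA or BSS. Both drugs are synthetic glucocorticoids, and no dose is given in the labels used here. An uninjected retina is not among the groups, so every drug value is set against an eye that had also been injected. The labels do not say whether the retinas of several animals were combined on 1 array.

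Bipolar cells are the interneurons that carry signals out of the photoreceptors to amacrine and ganglion cells. ON bipolar cells sense glutamate with the metabotropic receptor mGluR6, encoded by Grm6, which acts through the G protein Go and closes the cation channel TRPM1 in the dark. OFF bipolar cells use ionotropic glutamate receptors instead. Rod bipolar cells, the ON type that serves rods, are classically labelled by protein kinase C alpha, while cone bipolar types are told apart by transcription factors such as VSX1 and by calcium-binding proteins.

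The deposited values are on a log2 scale and are relative: for each probe set the median over the 18 arrays is 0. A value of 0.30 therefore means 0.30 log2 units above that probe set's own median, and the values hold no expression level. Neither the retinal identity of the tissue nor the order of levels between genes can be read from them, and genes cannot be ranked by abundance. In whole retina, fewer bipolar cells and less RNA per bipolar cell cannot be told apart.

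The arrays were not equally alike within their groups. The standard deviation over all probe sets lay between 0.146 and 0.349, and was highest on TAA day 30 replicate 2 (0.349) and TAA day 7 replicate 2 (0.338). BSS day 7 replicate 1 had a mean correlation of -0.149 with the other arrays of its group over all probe sets. TAA day 30 replicate 2 held the lowest value of the 18 arrays in 7 of the 19 bipolar probe sets, and TAA day 7 replicate 2 held the highest in 5. Where a result described below leaned on 1 of these 3 arrays, its value without that array is given too. They are the 3 arrays said below to stand apart, but they were not the only unlike ones. DEX day 30 replicate 3 and TAA day 7 replicate 1 had mean correlations of -0.064 and -0.039 with their groups. Both stay in when the 3 arrays are left out.

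The promoters of 4 members are shown because these genes form the pairs whose values moved together most closely across the arrays, as described further on. Each is the RefSeq window (GRCm38.p6) that runs 250 bases before to 50 bases after the annotated start, written 5′ to 3′ on the gene's strand. Capitals mark TAATCC or its reverse complement GGATTA, the core recognised by the photoreceptor and bipolar homeodomain factors CRX and OTX2.
Vsx1 (chr2:150689088-150689387, minus strand): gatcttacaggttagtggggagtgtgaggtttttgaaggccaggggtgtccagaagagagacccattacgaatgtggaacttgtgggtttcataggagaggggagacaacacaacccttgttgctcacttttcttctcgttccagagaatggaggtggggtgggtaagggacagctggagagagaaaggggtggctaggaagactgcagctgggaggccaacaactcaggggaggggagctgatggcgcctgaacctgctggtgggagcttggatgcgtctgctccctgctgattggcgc
Lrtm1 (chr14:29017958-29018257, plus strand): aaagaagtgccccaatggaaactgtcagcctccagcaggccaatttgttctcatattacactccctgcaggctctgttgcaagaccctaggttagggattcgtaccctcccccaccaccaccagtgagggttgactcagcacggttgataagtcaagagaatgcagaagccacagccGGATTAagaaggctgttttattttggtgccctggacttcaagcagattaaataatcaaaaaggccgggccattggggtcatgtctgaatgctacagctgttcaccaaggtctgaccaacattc
Cabp5 (chr7:13397905-13398204, plus strand): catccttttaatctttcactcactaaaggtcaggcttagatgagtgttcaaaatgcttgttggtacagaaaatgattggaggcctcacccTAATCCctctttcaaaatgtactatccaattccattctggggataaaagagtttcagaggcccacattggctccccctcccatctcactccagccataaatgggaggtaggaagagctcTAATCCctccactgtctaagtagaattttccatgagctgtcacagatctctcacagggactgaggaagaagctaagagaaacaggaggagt
Prkca (chr11:108343839-108344138, minus strand): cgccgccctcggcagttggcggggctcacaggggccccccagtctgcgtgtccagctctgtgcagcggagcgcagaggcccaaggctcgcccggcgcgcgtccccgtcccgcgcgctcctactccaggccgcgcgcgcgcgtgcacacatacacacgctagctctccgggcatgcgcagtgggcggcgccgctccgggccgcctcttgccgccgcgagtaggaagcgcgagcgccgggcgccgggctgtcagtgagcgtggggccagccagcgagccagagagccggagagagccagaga

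The Cabp5 window holds the motif at -160 and again at -41 from the start, and the Lrtm1 window holds it once on the opposite strand at -73. The Vsx1 and Prkca windows do not hold these letters, and the Prkca window is the richest in G and C of all 13 windows of the bipolar genes (75.3%). Counting either strand, TAATCC was found in 4 of the 13 windows (1 each of Cabp5, Lrtm1, Trpm1 and Isl1), against 7.06% of all 32851 RefSeq promoter windows of the same length. TAATTA, a core bound by homeodomain proteins of the VSX and LIM classes, was found in 1 of the 13 windows (Pcp2), against 5.29% of all windows. The full glucocorticoid response element, an inverted repeat with a spacer that reads the same on both strands, was in 0 of the 13 windows and in 0.00913% of all windows. These matches describe the letters of the windows and say nothing of binding.

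The first question was whether either drug changed the bipolar genes at day 7. No member passed an adjusted p of 0.05 in limma in either comparison, and the limma adjusted p of every member was 0.9998 or more. Among all 45037 probe sets tested, 0.00222% passed in TAA against BSS and 0% in DEX against BSS. By sign alone, 15 of the 19 probe sets were higher in TAA retinas than in BSS retinas, with a median difference of 0.20, and 15 of 19 were higher in DEX retinas, with a median of 0.15. Over all probe sets the medians were -0.0078 for TAA and -0.0067 for DEX. The 2 comparisons share the BSS arrays, and these genes were picked with such results of the same arrays known, so the counts describe the members and support nothing beyond that.

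Vsx1, the homeodomain factor of cone bipolar cells, was higher after both drugs at day 7. Its probe set 1450487_at read 0.34, 0.14 and 0.13 in DEX retinas and 0.27, 0.49 and 0.06 in TAA retinas, against -0.01, -0.36 and -0.20 in BSS retinas. All 6 drug arrays lay above all 3 vehicle arrays, and replicate 2 of BSS was the lowest. The difference was 0.39 ± 0.13 (SE) for DEX and 0.46 ± 0.13 for TAA, with unadjusted limma p of 0.0088 and 0.0029. The other probe set, 1422104_at, read 0.06, 0.10 and 0.11 in DEX retinas and 0.28, 0.19 and 0.12 in TAA retinas, against 0.00, -0.18 and -0.00 in BSS retinas. These groups did not overlap either, and the TAA difference was 0.26 ± 0.11 (limma, unadjusted p = 0.027).

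Isl1, a LIM-homeodomain factor of ON bipolar cells that ganglion cells and cholinergic amacrine cells also express, was less even. On 1422720_at it read 0.16, 0.29 and -0.03 in DEX retinas and -0.03, 0.60 and 0.28 in TAA retinas, against -0.07, 0.03 and 0.19 in BSS retinas. The groups overlapped, and the highest of the 9 values was on TAA replicate 2. The other Isl1 probe set, 1450723_at, also overlapped in both comparisons. It read 0.15, 0.21 and -0.09 in DEX retinas and -0.05, 0.23 and 0.18 in TAA retinas, against -0.15, 0.10 and 0.07 in BSS retinas.

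Cabp5 encodes a calcium-binding protein of rod bipolar and some cone bipolar cells. On 1421780_a_at it read 0.35, 0.34 and -0.01 in DEX retinas at day 7, against 0.10, -0.30 and -0.46 in BSS retinas, a difference of 0.44 ± 0.15 (limma, unadjusted p = 0.0081). DEX replicate 3 fell between the vehicle arrays, so the groups overlapped. On 1451826_at it read 0.09, 0.26 and 0.14 in TAA retinas, against -0.16, -0.09 and -0.17 in BSS retinas, without overlap. That difference was 0.30 ± 0.09 (limma, unadjusted p = 0.0035).

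Scgn encodes secretagogin, a calcium-binding protein of cone bipolar cells. At day 7 it read 0.19, -0.14 and 0.12 in DEX retinas and 0.22, 0.03 and 0.34 in TAA retinas, against -0.08, -0.25 and -0.13 in BSS retinas. Each TAA array was above the vehicle range, and DEX replicate 2 fell within it. The TAA difference was 0.35 ± 0.14 (limma, unadjusted p = 0.0226). With array quality weights, which count unlike arrays for less, it was 0.49, with a limma adjusted p of 0.0412. Over all probe sets 101 passed with those weights.

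Prkca, the kinase that marks rod bipolar cells, differed most on 1427562_a_at after DEX. It read 1.16, 0.51 and 0.34 in DEX retinas, against 0.62, -0.25 and -0.28 in BSS retinas, and replicate 1 was the highest in both groups. The difference was 0.64 ± 0.26 (limma, unadjusted p = 0.024) and 0.39 without DEX replicate 1. On 1450945_at Prkca read 0.33, 0.30 and 0.34 in TAA retinas, against -0.01, 0.01 and 0.05 in BSS retinas. These 6 arrays were the most tightly grouped of the day 7 values described here, with no overlap and a difference of 0.31 ± 0.11 (limma, unadjusted p = 0.0113). The third probe set, 1437393_at, read 0.26, 0.31 and 0.24 in DEX retinas and 0.21, -0.03 and -0.01 in TAA retinas, against 0.03, 0.13 and -0.01 in BSS retinas, so that only the DEX arrays stood clear of the vehicle.

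Lrtm1 encodes a membrane protein with leucine-rich repeats. On 1444429_at it read 0.20, 0.35 and 0.14 in DEX retinas, against -0.11, -0.02 and -0.02 in BSS retinas, with no overlap and a difference of 0.28 ± 0.09 (limma, unadjusted p = 0.0081). On 1443866_at it read -0.06, 0.88 and 0.23 in TAA retinas, against -0.10, -0.12 and 0.06 in BSS retinas. That difference of 0.40 ± 0.18 (limma, unadjusted p = 0.0433) rested on TAA replicate 2 and was 0.14 without it.

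Trpm1 encodes the channel at the end of the mGluR6 cascade. Of its 4 probe sets, 3 were lower after both drugs at day 7, as was Pcp2 1424944_at, but for 1437445_at and 1418935_at this rested on 1 vehicle array. Trpm1 1437445_at read -0.13, -0.05 and 0.27 in DEX retinas and -0.03, 0.26 and 0.03 in TAA retinas, against 0.80, -0.06 and -0.03 in BSS retinas. The value of 0.80 on BSS replicate 1 was the highest for this probe set on any array, and 1418935_at stood at 0.71 on the same array. Without it, the difference for 1437445_at was 0.077 after DEX and 0.13 after TAA, against -0.20 and -0.15 with it. For 1418935_at it was 0.25 after DEX and -0.0017 after TAA without that array, against -0.043 and -0.30 with it. TRPM1 is also a melanocyte protein, first known as melastatin. On that array the pigment cell genes Dct and Pmel stood at 2.37 and 1.72, against -0.13 and -0.22 on BSS replicate 2 and 0.41 and 0.25 on replicate 3, while the pigment epithelium genes Rpe65 and Rgr stood at -1.29 and -1.47. The whole pigment list of 9 genes averaged 0.09 on BSS replicate 1, against 0.20 and 0.26 on replicates 2 and 3, and its part in the Trpm1 values was not tested.

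Pcp2 encodes a small protein of rod bipolar and Purkinje cells that binds Go. Its probe set 1419084_a_at read 0.21, 0.19 and -0.04 in DEX retinas and -0.13, 0.30 and 0.45 in TAA retinas, against -0.03, 0.17 and 0.03 in BSS retinas at day 7. The groups overlapped, as they did for the other Pcp2 probe sets. No Trpm1, Pcp2 or Isl1 probe set had an unadjusted p under 0.05 in either comparison with vehicle at day 7.

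At an unadjusted p of 0.05 in limma, 6 of the 19 members were higher after TAA at day 7, against 1.76% of all probe sets, and 4 of 19 were higher after DEX, against 2.24% of all. None was lower, against 1.99% of all for TAA and 1.15% for DEX. Arrays of the drug lay above all vehicle arrays in 5 of 19 members for TAA, against 4.26% of all probe sets, and in 5 of 19 for DEX, against 6.86%. In no member did they lie wholly below, against 5.65% of all for TAA and 6.94% for DEX. The 95% intervals of single member differences reached 0.19 to 0.56 log2 units to either side of the value, so smaller differences were not detectable at this number of arrays. These intervals are unadjusted, and a larger difference could still miss the stricter adjusted threshold. When known differences were simulated for the TAA comparison, the fit recovered 27.2% of those of 0.5 log2 units. It recovered 87.2% of those of 1 and 98.5% of those of 2. The adjusted threshold depends on how many differences are present, so these rates need not hold for the real comparison. There, 0 of 15 probe sets of reactive glia genes passed, with a median difference of 1.20. Without the 3 arrays that stood apart, 17 of 19 members were higher after TAA, with a median of 0.11, and 17 of 19 after DEX, with a median of 0.19.

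**Figure D1:**
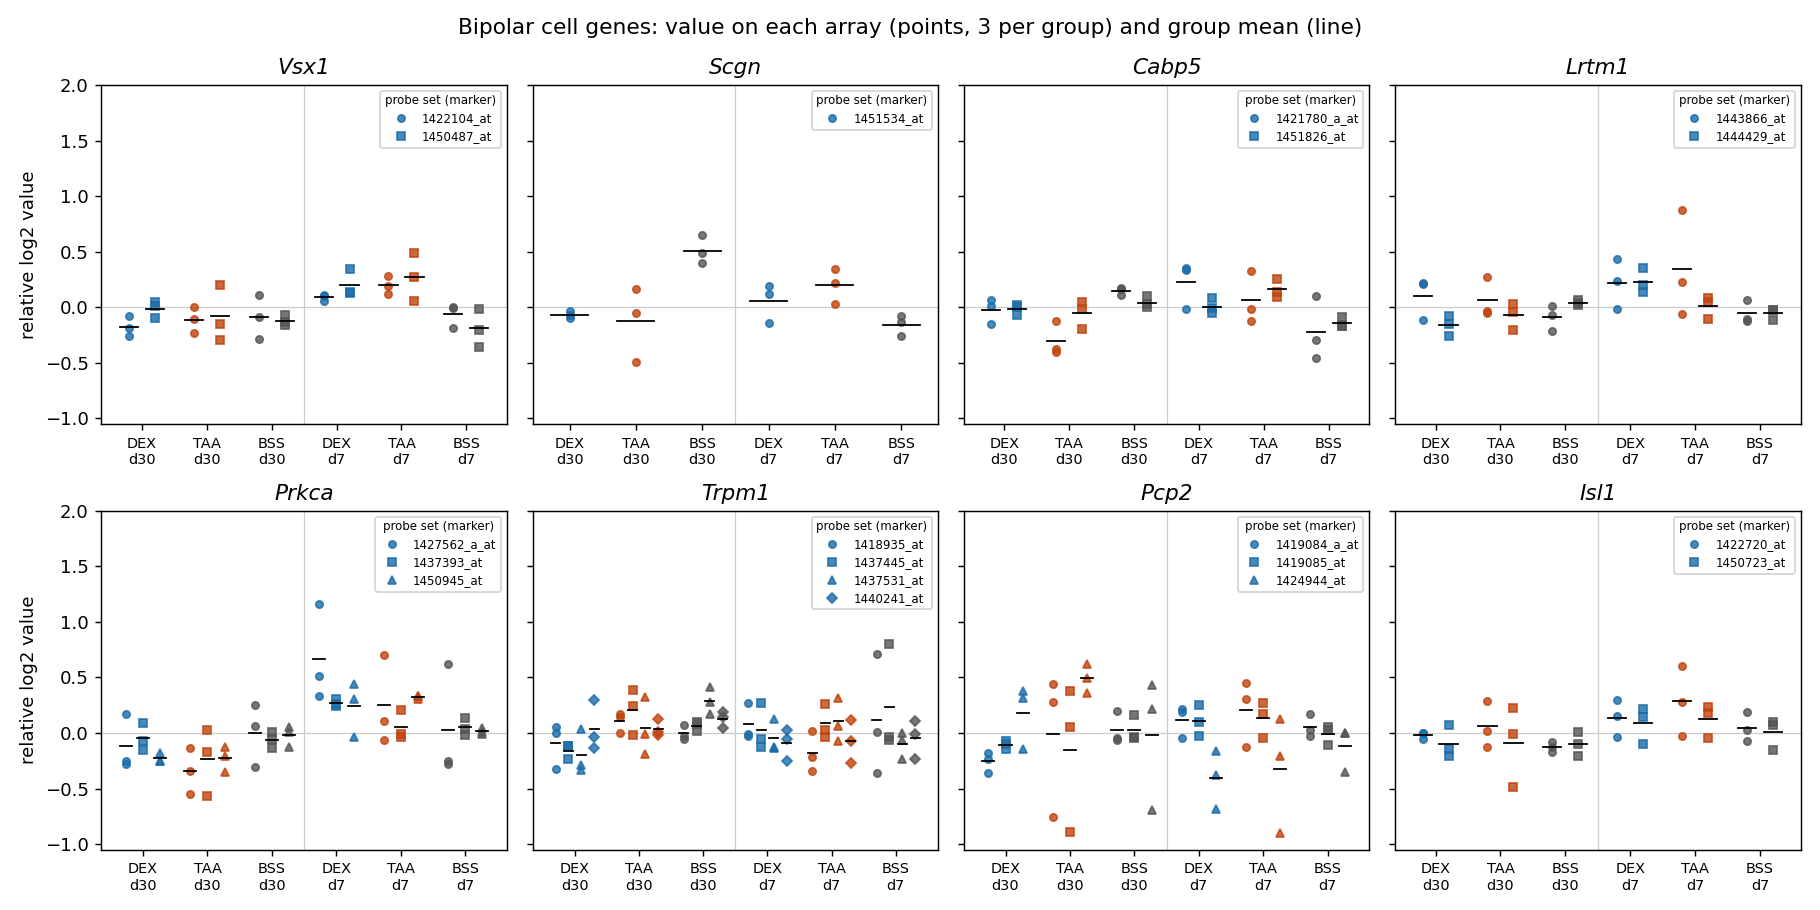
Relative log2 value of each bipolar probe set on each array (vertical axis, 0 is the probe set's median over the 18 arrays), by group (d30 is day 30, d7 is day 7), with a marker for each probe set and a line at the group mean. Scgn stands highest in the 3 BSS day 30 retinas, Prkca 1427562_a_at reaches 1.16 on 1 DEX day 7 array, and 2 Trpm1 probe sets reach 0.71 and 0.80 on 1 BSS day 7 array.

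The drugs were then compared with vehicle at day 30. The bipolar genes were no longer mostly higher: 6 of 19 were higher in DEX retinas and 7 of 19 in TAA retinas than in BSS retinas, with medians of -0.09 in both. Over all probe sets 45.2% were higher in DEX and 43.9% in TAA retinas, with medians of -0.022 and -0.023. The DEX median was -0.046 without DEX replicate 1 and -0.14 without DEX replicate 3, and the TAA median was -0.026 without TAA replicate 2 and -0.15 without TAA replicate 1. No member passed the adjusted threshold in limma, nor did any of the probe sets tested (0% called in either comparison). Scgn had the smallest p of the members after both drugs. It read -0.03, -0.07 and -0.10 in DEX retinas and -0.05, -0.49 and 0.16 in TAA retinas, against 0.49, 0.39 and 0.65 in BSS retinas. The vehicle arrays lay above all 6 drug arrays. Scgn was lower by 0.58 ± 0.14 after DEX (a difference of -0.58, limma adjusted p = 0.374) and by 0.64 ± 0.14 after TAA (-0.64, limma adjusted p = 0.721). The TAA difference was -0.45 without TAA replicate 2. With array quality weights the DEX difference had an adjusted p of 0.00913 in limma.

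Cabp5 1421780_a_at read -0.38, -0.40 and -0.12 in TAA retinas at day 30, against 0.17, 0.17 and 0.11 in BSS retinas. The groups did not overlap, and the difference was -0.45 ± 0.15 (limma, unadjusted p = 0.0074, adjusted p = 0.721). Trpm1 1437531_at read -0.29, -0.33 and 0.04 in DEX retinas, against 0.28, 0.17 and 0.42 in BSS retinas. Here too the arrays did not overlap, and the difference was -0.49 ± 0.14 (limma, adjusted p = 0.374). Without DEX replicate 3, the highest of its group, it was -0.60 (limma, adjusted p = 0.0372), and with array quality weights it was -0.57 (limma, adjusted p = 0.00847). Over all probe sets 2009 passed without that array and 4823 passed with those weights, against 0 as reported. Trpm1 1437445_at read -0.12, -0.12 and -0.24 in DEX retinas, against 0.10, 0.08 and 0.02 in BSS retinas, also without overlap. On 1418935_at the values were -0.32, 0.00 and 0.06, against 0.07, -0.02 and -0.05. On 1440241_at they were -0.04, -0.13 and 0.29, against 0.19, 0.14 and 0.05. Both of these overlapped. Lrtm1 1444429_at read -0.26, -0.08 and -0.15 in DEX retinas, against 0.04, 0.06 and 0.02 in BSS retinas, and the arrays did not overlap. That difference was -0.20 ± 0.09 (limma, adjusted p = 0.436).

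Other members separated after 1 drug or after neither. Vsx1 1422104_at read -0.26, -0.19 and -0.08 in DEX retinas and -0.11, 0.00 and -0.23 in TAA retinas, against -0.29, -0.09 and 0.11 in BSS retinas. The vehicle arrays alone spanned the whole range of both drugs. Pcp2 1419084_a_at read -0.18, -0.23 and -0.36 in DEX retinas and 0.44, -0.75 and 0.28 in TAA retinas, against 0.19, -0.06 and -0.05 in BSS retinas. The DEX arrays lay below the vehicle arrays, while TAA replicate 2 was far below the other TAA arrays. On 1419085_at the same array read -0.89.

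At an unadjusted p of 0.05, 3 of 19 members were lower after DEX at day 30, against 5.77% of all probe sets, and 2 of 19 were lower after TAA, against 3.35%. None was higher, against 5.53% of all for DEX and 3.4% for TAA. Arrays lay wholly below the vehicle in 8 of 19 members after DEX, against 8.6% of all probe sets, and in 3 of 19 after TAA, against 7.39%. The one member whose DEX arrays lay wholly above the vehicle was Isl1 1422720_at, against 5.31% of all. There was none for TAA, against 5.36%.

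**Figure D2:**
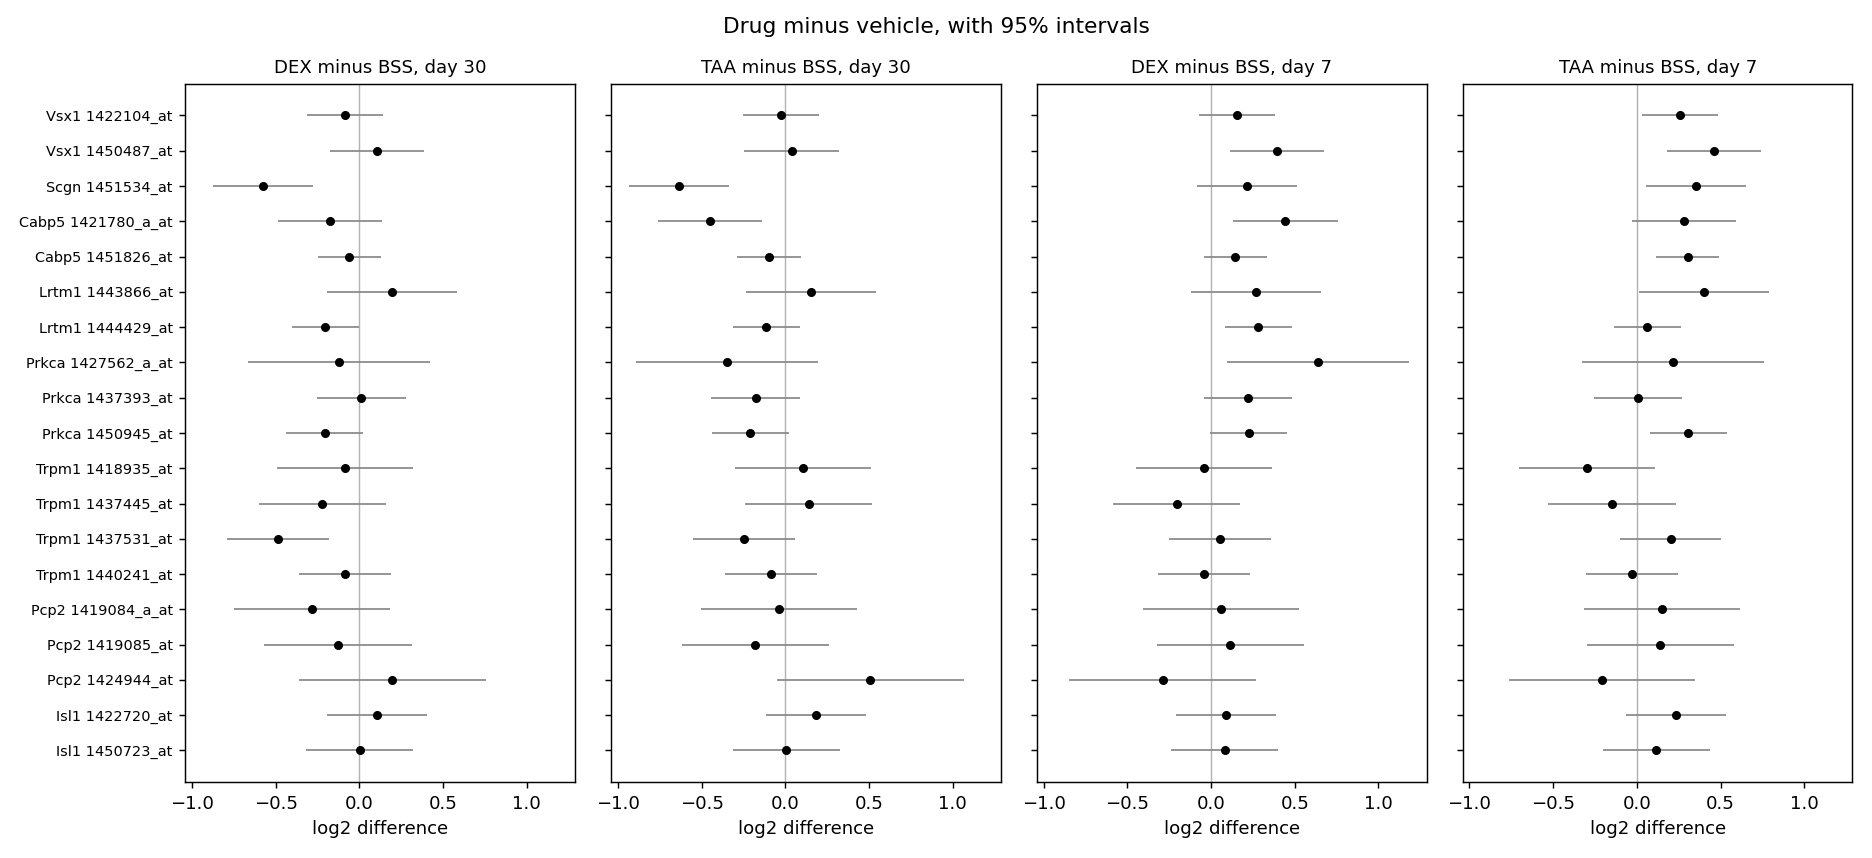
Difference between drug and vehicle for each bipolar probe set (horizontal axis, log2 units, with 95% limma intervals), in a panel for each drug and day. At day 30 the Scgn intervals lie wholly below 0 for both drugs, at day 7 most points lie above 0, and no difference passed an adjusted p of 0.05.

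DEX and TAA retinas were compared directly on the same days. No member and none of the probe sets tested passed the adjusted threshold (0% called at either day). At day 7, 5 of 19 members were higher in DEX than in TAA retinas, with a median difference of -0.07. Without TAA replicate 2, which stood apart, 11 of 19 were higher and the median was 0.021. Lrtm1 1444429_at was the only member with an unadjusted p under 0.05, a share to be set against 3.61% of all probe sets: it read 0.20, 0.35 and 0.14 in DEX retinas, against 0.05, -0.11 and 0.08 in TAA retinas. All DEX arrays were higher, and the difference was 0.22 ± 0.09 (limma, unadjusted p = 0.0315, adjusted p = 0.801). No member was lower at an unadjusted p of 0.05, against 2.49% of all. Arrays did not overlap in 2 members that were higher (Lrtm1 1444429_at and Prkca 1437393_at) and 2 that were lower (Vsx1 1422104_at and Cabp5 1451826_at), against 6.71% and 5.45% of all. The drugs were close for Vsx1 1450487_at at day 7, at -0.07 with an interval of -0.35 to 0.21, which does not show that they act alike. At day 30 no member had an unadjusted p under 0.05, against 8.18% of all probe sets higher and 7.66% lower, and 10 of 19 were higher in DEX retinas. Arrays were wholly lower in 1 member, Trpm1 1437445_at, and wholly higher in none, against 7.7% and 6.29% of all. Prkca 1450945_at showed how near the drugs could lie: it read -0.18, -0.26 and -0.25 in DEX retinas, against -0.13, -0.21 and -0.35 in TAA retinas, with an interval of the difference of -0.23 to 0.23.

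The change between the days within each treatment gave the only members that passed the adjusted threshold. In DEX retinas 2 of the 19 members fell at day 30 relative to day 7 and none rose, against 1.27% of all probe sets that fell and 0.644% that rose (1.92% called in all). Prkca 1450945_at read -0.18, -0.26 and -0.25 at day 30, against 0.44, 0.31 and -0.03 at day 7. All day 30 arrays lay below all day 7 arrays, although DEX day 7 replicate 3 stood nearer to them. It fell by 0.47 ± 0.11 on the log2 scale, to 0.723 of the day 7 level (limma, adjusted p = 0.0393). Lrtm1 1444429_at read -0.26, -0.08 and -0.15 at day 30, against 0.20, 0.35 and 0.14 at day 7, with a clear gap between the days. It fell by 0.39 ± 0.09, to 0.762 of the day 7 level (limma, adjusted p = 0.0443).

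Neither call was stable. When any of DEX day 7 replicates 1 or 2 or DEX day 30 replicates 1 or 2 was left out, both lost it. The differences then ran between -0.36 and -0.49 for Prkca, with adjusted p of 0.11 to 0.22, and between -0.33 and -0.43 for Lrtm1, with adjusted p of 0.104 to 0.181 (limma). Lrtm1 also lost it without DEX day 7 replicate 3 (limma adjusted p = 0.0513). Over all probe sets 863 were called in this comparison, against 2 to 9 when 1 of those 4 arrays was left out and 2874 without DEX day 30 replicate 3.

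The other Prkca probe sets were lower at day 30 too, without passing the threshold. On 1427562_a_at the DEX arrays read 0.18, -0.28 and -0.25 at day 30, against 1.16, 0.51 and 0.34 at day 7. The days did not overlap, the difference was -0.79 ± 0.26, and the limma adjusted p was 0.112. On 1437393_at they read -0.16, 0.09 and -0.08 at day 30, against 0.26, 0.31 and 0.24 at day 7, again with no overlap and a difference of -0.32 ± 0.13 (limma, adjusted p = 0.184). Vsx1 1422104_at gave a difference of -0.27 ± 0.11 (limma, adjusted p = 0.192), and its arrays did not overlap. With array quality weights these last 2 had limma adjusted p of 0.0209 and 0.0436, and without the 3 arrays that stood apart Prkca 1427562_a_at had 0.0487. Over all probe sets 7674 passed with those weights and 2713 without those 3 arrays, against 863 as reported. In all, 17 of 19 members were lower at day 30 in DEX retinas, with a median difference of -0.19, and arrays lay wholly lower in 8 of 19, against 14.8% of all probe sets, and wholly higher in 1 of 19, against 9.15%. At an unadjusted p of 0.05, 5 of 19 were lower and 1 of 19 was higher, against 10.1% and 8.28% of all.

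In TAA retinas no member passed, and 0% of all probe sets did. The sign was again mostly negative, with 15 of 19 members lower at day 30 and a median of -0.22. Prkca 1450945_at had the smallest p of the members: it read -0.13, -0.21 and -0.35 at day 30, against 0.33, 0.30 and 0.34 at day 7. The days were far apart for each array, and the difference was -0.55 ± 0.11 (limma, adjusted p = 0.133). With array quality weights it was -0.58, with a limma adjusted p of 0.0334, and 81 of all probe sets passed. Vsx1 1450487_at read -0.15, 0.20 and -0.30 at day 30, against 0.27, 0.49 and 0.06 at day 7. These overlapped, and the difference was -0.36 ± 0.13. At an unadjusted p of 0.05, 8 of 19 members were lower, against 6.35% of all probe sets, and 1 was higher, against 5.56%. Arrays lay wholly lower in 4 of 19, against 6.07%, and wholly higher in 1, against 6.71%. Without the 3 arrays that stood apart, 7 of 19 were higher at day 30 and the median was -0.13. At an unadjusted p of 0.05, 4 of 19 were then lower, against 3% of all probe sets. Without TAA day 30 replicate 2 alone, 3 of 19 were lower by that rule, against 3.58% of all.

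Pcp2 1424944_at had the opposite sign after both drugs. It read 0.38, 0.31 and -0.15 at day 30, against -0.68, -0.38 and -0.16 at day 7 in DEX retinas, and 0.36, 0.49 and 0.62 at day 30, against -0.90, 0.13 and -0.20 at day 7 in TAA retinas. The differences were 0.59 ± 0.26 for DEX and 0.82 ± 0.26 for TAA, with limma adjusted p of 0.244 and 0.289. The TAA difference was 0.53 without TAA day 7 replicate 1, and the DEX difference with array quality weights was 0.76 (limma adjusted p = 0.0292). With those weights 7674 of all probe sets passed in DEX retinas. This probe set did not follow the other Pcp2 probe sets over the 18 arrays, as given below. Trpm1 1440241_at was also higher at day 30 after both drugs, at 0.13 for DEX and 0.11 for TAA. In TAA retinas alone, Trpm1 1418935_at and 1437445_at were higher too, at 0.28 and 0.12.

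In BSS retinas the picture differed by gene. Scgn read 0.49, 0.39 and 0.65 at day 30, against -0.08, -0.25 and -0.13 at day 7. The days were clearly apart, and the difference of 0.67 ± 0.14 had a limma adjusted p of 0.287. Under quantile normalization it was 0.84 (limma adjusted p = 0.0212), and with array quality weights 0.71 (limma adjusted p = 0.00584). Over all probe sets 83 and 511 passed in these fits. Cabp5 1421780_a_at read 0.17, 0.17 and 0.11 at day 30, against 0.10, -0.30 and -0.46 at day 7, a difference of 0.37 ± 0.15. Trpm1 1437531_at read 0.28, 0.17 and 0.42 at day 30, against 0.00, -0.07 and -0.23 at day 7, a difference of 0.39 ± 0.14. These 3 were the members with an unadjusted p under 0.05, against 3.77% of all probe sets that were higher by that rule and 3.59% that were lower. Arrays of day 30 lay wholly above day 7 in 5 of 19 members and wholly below in 1, against 10.6% and 10.5% of all. Prkca 1450945_at, which was lower at day 30 after both drugs, read 0.01, 0.05 and -0.12 at day 30, against -0.01, 0.01 and 0.05 at day 7 in BSS retinas. The adjusted threshold was passed by 0.0133% of all probe sets in BSS retinas and by no member.

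**Figure D3:**
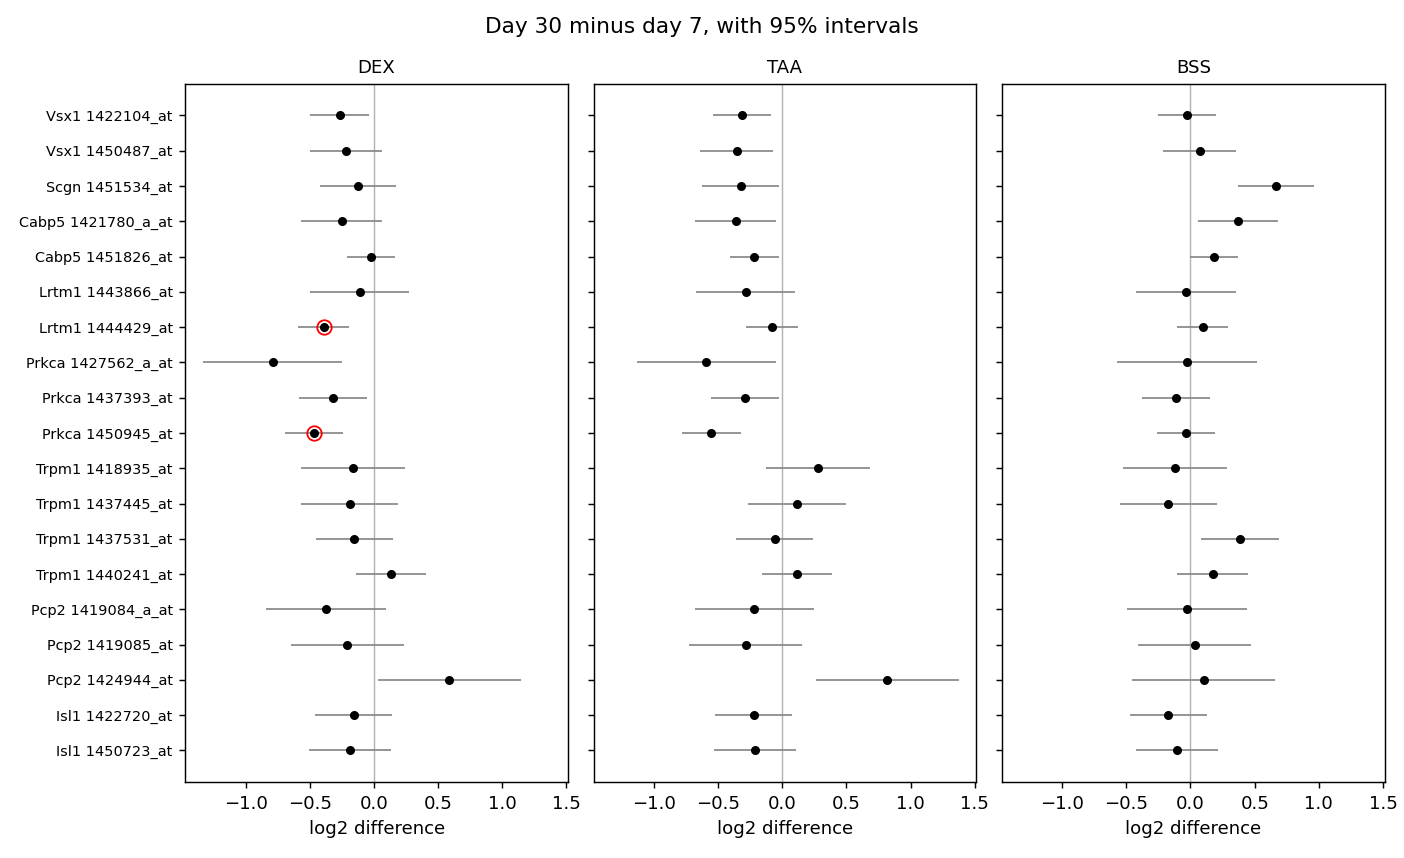
Difference between day 30 and day 7 for each bipolar probe set within DEX, TAA and BSS retinas (horizontal axis, log2 units, with 95% limma intervals; a red ring marks an adjusted p under 0.05). The ringed points are Prkca 1450945_at and Lrtm1 1444429_at in DEX retinas, and Scgn lies at 0.67 in BSS retinas.

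Whether a drug's difference from vehicle itself differed between the days was tested as an interaction. No member passed, and 0% of all probe sets did, for either drug. With array quality weights 1 member passed for TAA and 4 for DEX, but so did 17 and 2773 of all probe sets. Scgn had the smallest p of the members for TAA, at -0.99 ± 0.20 (limma, adjusted p = 0.641), where it was higher than vehicle at day 7 and lower at day 30. For DEX the Scgn interaction was -0.79 ± 0.20 (limma, adjusted p = 0.491). With array quality weights the Scgn interaction had a limma adjusted p of 0.0327 for TAA and 0.0128 for DEX. The others that passed for DEX with those weights were Cabp5 1421780_a_at, Lrtm1 1444429_at and Trpm1 1437531_at, with limma adjusted p of 0.0434, 0.0185 and 0.0269. Since both interactions use the same 6 BSS arrays, and Scgn moved in those arrays too, they are not separate evidence. Cabp5 1421780_a_at gave -0.73 for TAA and -0.62 for DEX, and Prkca 1450945_at gave -0.52 and -0.43. In sign, 16 of 19 members were negative for TAA and 17 of 19 for DEX, with medians of -0.25 and -0.24. For TAA, 12 of 19 were negative without TAA day 30 replicate 2, and 13 of 19 without the 3 arrays that stood apart. With all arrays, 6 and 5 had an unadjusted p under 0.05 in limma and were negative for TAA and DEX, against 2.6% and 4.41% of all probe sets. None was positive by that rule, against 3.02% of all for TAA and 3.75% for DEX.

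Probe sets of 1 gene were compared over the 18 arrays, a description of how far they measure the same thing that shares arrays and labelling. Of 16 such pairs, 13 had a positive Pearson r, with a median of 0.475. The closest were Pcp2 1419084_a_at and 1419085_at (r = 0.905, Spearman rho = 0.893). They kept r = 0.843 without the 2 arrays farthest from the median. Pcp2 1424944_at had r of -0.18 and -0.32 with those probe sets. The Cabp5 pair had r = 0.408, and the Trpm1 pairs lay between -0.091 and 0.559. Trpm1 1437531_at had r of 0.10 with 1418935_at, 0.23 with 1437445_at and 0.56 with 1440241_at. The Prkca pairs lay between 0.564 and 0.697, the Vsx1 pair at 0.689 and the Isl1 pair at 0.739, while the Lrtm1 pair had r = 0.09. The Lrtm1 fall in DEX retinas was thus seen on 1 probe set that the other did not track: 1443866_at read 0.22, 0.21 and -0.11 at day 30, against 0.43, 0.24 and -0.02 at day 7.

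Among the 8 genes, each taken as the mean of its probe sets, 17 of the 28 pairs had a positive r, with a median of 0.163. The highest were Vsx1 with Lrtm1 (r = 0.695, rho = 0.583) and Cabp5 with Prkca (r = 0.682, rho = 0.664), the genes whose promoters are printed above. Without the 2 arrays farthest from the median these were 0.711 and 0.629. The genes whose pattern over the 18 arrays was most like the mean of the 8 were Tom1 (r = 0.876, rho = 0.856), Sipa1l1 (r = 0.819), Myh14 (r = 0.819), Irx5 (r = 0.815) and Drap1 (r = 0.809). Irx5, a homeodomain factor of some cone bipolar cells, is in the list of other bipolar genes. Without TAA day 30 replicate 2 and DEX day 7 replicate 1 these values were 0.833, 0.704, 0.698, 0.698 and 0.688.

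The mean of the 8 genes gives the whole set on 1 scale. It stood at -0.07, -0.05 and -0.08 in DEX retinas and 0.03, -0.18 and -0.03 in TAA retinas at day 30, against 0.04, 0.08 and 0.06 in BSS retinas. At day 7 it stood at 0.19, 0.13 and 0.05 in DEX retinas and 0.10, 0.19 and 0.14 in TAA retinas, against 0.02, -0.10 and -0.08 in BSS retinas. At day 7 every drug array lay above every vehicle array, and at day 30 every drug array lay below every vehicle array. The nearest arrays were close, at 0.049 against 0.017 at day 7 and 0.027 against 0.037 at day 30. The amacrine and reactive glia means also lay higher on every drug array at day 7. As the genes were picked with results of these arrays known, the separation describes the members and supports nothing beyond that. The spread within a group reached a standard deviation of 0.105 (TAA day 30, n = 3).

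The partners of mGluR6 were listed apart from the members: the G protein subunits Gnao1, Gnb3 and Gng13, the RGS proteins Rgs7 and Rgs11 with Gnb5 and Rgs9bp, and the synaptic proteins Nyx, Gpr179 and Lrit3. Probe sets were named for 9 of these 10 genes, 13 in all, and Lrit3 was not analysed. None passed the adjusted threshold in any of the 4 comparisons of drug with vehicle. At day 7, 6 of 13 were higher after DEX and 9 of 13 after TAA, with medians of -0.00 and 0.05. The only one with an unadjusted p under 0.05 in these was Rgs9bp, at -0.23 ± 0.10 after TAA. Gpr179 is the orphan receptor that anchors the RGS proteins at the dendritic tips, and Nyx encodes nyctalopin, which TRPM1 needs to reach the membrane. Over the 13 probe sets the differences at day 7 ran between -0.12 and 0.25 after DEX and between -0.23 and 0.23 after TAA. Between the days in DEX retinas Gnb3, the beta subunit of Go in ON bipolar cells, stood at -0.47 ± 0.15, with a limma adjusted p of 0.0942.

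A list of 25 other bipolar genes had probe sets for 23, 43 in all. At day 7, 33 of 43 were higher after DEX and 36 of 43 after TAA, with medians of 0.11 and 0.15, and at day 30, 22 and 20 of 43 were higher, with medians of 0.02 and -0.01. None passed the adjusted threshold in these. The smallest p at day 7 after DEX belonged to Irx5 at 0.53 ± 0.15, and Nfia 1438236_at followed at 0.61 ± 0.18. After TAA the smallest belonged to Gabrr1, a subunit of the GABA receptors on bipolar terminals, at 0.27 ± 0.09. In DEX retinas, 3 of 43 fell at day 30 relative to day 7 and none rose, against 1.27% and 0.644% of all probe sets. Car8, a carbonic anhydrase-related protein found in rod bipolar cells, fell by 0.73 ± 0.13 on 1424958_at (limma, adjusted p = 0.0202). Kcng4, a modifier subunit of potassium channels, fell by 0.75 ± 0.14 (limma, adjusted p = 0.0237). Nfia, a transcription factor that Müller glia also express, fell by 0.999 ± 0.18 on 1438236_at (limma, adjusted p = 0.0231). All 3 lost the call, with limma adjusted p of 0.0671 to 0.163, when any of DEX day 7 replicates 1 or 2 or DEX day 30 replicates 1 or 2 was left out, the arrays on which the Prkca and Lrtm1 calls also rested. With the compared groups alone their limma adjusted p was 0.0607 to 0.079.

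Markers of other retinal cells were read beside these. Müller glia had 16 of 19 probe sets higher after DEX at day 7 and 16 of 19 after TAA, with medians of 0.22 and 0.18, and amacrine cells had 19 of 22 higher after both, with medians of 0.15 and 0.17. Horizontal cell markers had 12 and 11 of 14 higher, with medians of 0.17 and 0.14. Ganglion cell medians were -0.02 after DEX and -0.03 after TAA, rod medians -0.07 and -0.02, and cone medians -0.13 and -0.17, with 0 of 12 cone probe sets higher in either comparison. Microglia markers had 11 of 12 higher after DEX and 4 of 12 after TAA, with medians of 0.34 and -0.08, endothelial markers had 4 and 3 of 6 higher, with medians of 0.14 and 0.00, and pigment epithelium markers had 1 and 2 of 12 higher, with medians of -0.45 and -0.20. Differences at day 7 were thus mostly positive in the Müller glia, amacrine and horizontal cell lists, as in the bipolar genes, and, after DEX, in the microglia list. They were not in the ganglion cell, rod, cone and pigment epithelium lists. The reactive glia genes, which include Gfap and Serpina3n, had 15 of 15 probe sets higher after both drugs, with medians of 0.76 and 1.20. Their mean read 0.36, 0.65 and 0.25 in DEX retinas and 1.07, 2.52 and 0.15 in TAA retinas, against -0.25, -0.80 and -0.46 in BSS retinas. The array with 2.52, TAA day 7 replicate 2, was also the one with the highest Müller glia mean (0.65), the lowest cone mean (-0.50) and the highest mean of the bipolar genes in its group. The part of these cells in the bipolar values was not tested.

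Some other lists were also lower at day 30 than at day 7 where most bipolar genes were, and some were not. In DEX retinas only 1 of 15 reactive glia probe sets was higher at day 30, with a median of -0.68, and only 1 of 12 microglia probe sets, with a median of -0.64. A Gfap probe set (a difference of -1.79) and a Tmem119 probe set (-0.53) fell past the adjusted threshold, with limma adjusted p of 0.0353 and 0.0402. Both lost the call when replicate 1 or 2 of either DEX group was left out, with limma adjusted p of 0.111 to 0.222, and Gfap also without DEX day 7 replicate 3 (limma adjusted p = 0.0519). In TAA retinas 1 of 15 reactive glia probe sets was higher, with a median of -1.14, and 12 were lower at an unadjusted p of 0.05. Ganglion cell markers had 7 of 14 higher in DEX retinas, with a median of -0.04, and 1 of 14 in TAA retinas, with a median of -0.32. The Müller glia medians were -0.10 in DEX and -0.04 in TAA retinas, and the amacrine medians -0.06 and -0.11. Horizontal cell markers had 5 and 1 of 14 higher, with medians of -0.12 and -0.14. Rod markers had 5 of 6 higher in DEX and 2 of 6 in TAA retinas, with medians of 0.09 and -0.10. Pigment epithelium markers had 9 and 8 of 12 higher, with medians of 0.16 and 0.02. In BSS retinas 13 of 15 reactive glia probe sets were higher at day 30, with a median of 0.26. The part of these lists in the bipolar differences between the days was not tested.

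Against vehicle at day 30, microglia markers had 1 of 12 probe sets higher after each drug. After DEX and TAA, Müller glia had 8 and 5 of 19 higher, reactive glia 5 and 4 of 15, and amacrine cells 12 and 8 of 22. Rod markers had 5 and 2 of 6 higher. The part of these lists in the bipolar values at day 30 was not tested. At day 30 the rod mean stood at -0.29 on TAA replicate 2, the array on which 7 of the bipolar probe sets were lowest. The ganglion cell mean read 0.10, 0.13 and -0.30 in DEX retinas and -0.25, -0.46 and -0.15 in TAA retinas, against 0.05, -0.17 and -0.15 in BSS retinas. Bipolar, rod and ganglion cell values were thus lowest together on that array.

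**Figure D4:**
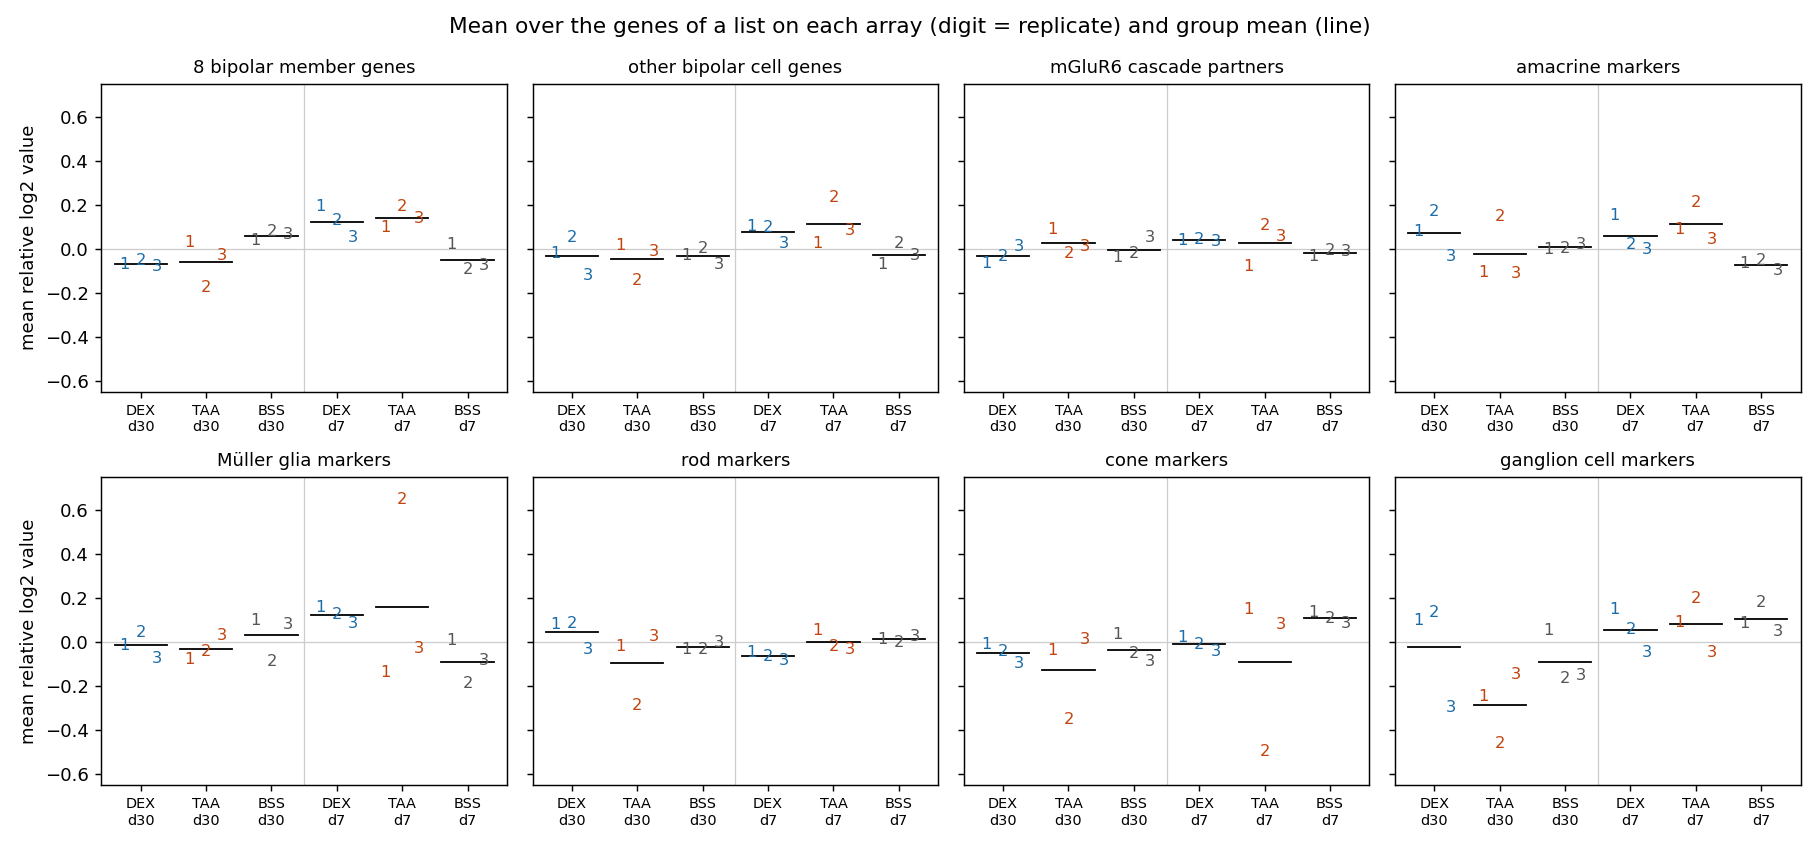
Mean relative log2 value over the genes of a list on each array (vertical axis), by group, with the replicate number as the symbol and a line at the group mean. The bipolar and amacrine means of the DEX and TAA day 7 arrays lie above those of the BSS day 7 arrays, and replicate 2 of TAA stands apart at day 7 in the Müller glia and cone panels and at day 30 in the rod panel.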

How the data were processed

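The 18 arrays measured RNA of whole retina in 6 groups of 3, grouped by their titles. Per the labels' protocols, total RNA was isolated with a Qiagen kit and labelled by the two-cycle Affymetrix procedure. Per the submitters' processing notes, the authors processed the arrays with RMA, and its settings are not given in the sources used here. The deposited values were taken as log2 values by RMA's convention. They are centred, with every probe set's median within 5e-07 of 0. Signal over background, and so a filter on level, is therefore unknown. No batch or scan date is given, and precision is limited by the count of arrays. The titles call the replicates biological without naming animals, so p-values measure only the spread between these samples.

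Of 45101 probe sets, 64 controls were left out. Of the 45037 tested, 34945 were named for 1 gene, 932 for several and 9160 are unnamed here. All arrays entered 1 model in limma 3.58.1 (R 4.3.3) in which every group had its own mean, leaving 12 residual and adding 5.48 prior degrees of freedom. Benjamini-Hochberg adjustment ran over all 45037 probe sets, separately for each of 11 contrasts, with a threshold of 0.05. The fit was tested on simulated data. An exact permutation test of 3 arrays against 3 cannot go below p = 0.1, so none was used. Correlations of members are given without p-values. The members and lists were chosen with earlier results of these data known. Every member was reported in at least 1 comparison, values with SE only where the unadjusted p was under 0.05. From each list up to 4 members of smallest p were named, and the mGluR6 partners in full.

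Same-numbered replicates matched best for all 3 numbers in DEX against BSS at both days, and in DEX and BSS retinas between the days. Correlations of deviations from the group means were 0.11, 0.15 and 0.24 in DEX against BSS at day 30. They were 0.13, 0.13 and 0.053 at day 7. Between the days they were 0.073, 0.22 and 0.24 in DEX retinas and 0.11, 0.053 and 0.093 in BSS retinas. The replicate block left the count of calls at 0 for DEX against BSS at both days, and gave 974 for DEX and 7 for BSS between the days. Alternatives were quantile normalization, median centring, array weights, robust moderation, the compared groups alone, the replicate block, each array left out, the 3 arrays that stood apart left out, 1 probe set per gene, and the upper part by interquartile range.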

Additional observations from a re-analysis of the deposited data

How the results depend on the processing

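Counts of probe sets with a limma adjusted p under 0.05 moved with the processing, and so did bipolar values, as given further below. In the order DEX against BSS at day 7, TAA against BSS at day 7 and DEX day 30 against day 7, the counts as reported were 0, 1 and 863. Quantile normalization gave 1, 3 and 532, with 2 for DEX against TAA at day 7, 83 for BSS and 2 for TAA between the days. Array weights gave 10, 101 and 7674, with 4823 for DEX against BSS at day 30, 860 and 3959 for DEX against TAA at days 7 and 30, 511 for BSS and 81 for TAA between the days, and 2773 and 17 for the DEX and TAA interactions. The compared groups alone gave 2, 0 and 1, with 3 for BSS between the days and 10 for the DEX interaction. Leaving out the 3 arrays that stood apart gave 31, 0 and 2713, with 1 for DEX against BSS at day 30, 2 for DEX against TAA at day 7, 20 for BSS between the days and 1 for the DEX interaction. Median centring and robust moderation gave 0 for TAA against BSS at day 7. With 1 probe set per gene DEX against TAA at day 7 had 1 and DEX between the days 479. The upper part by interquartile range had 2 for TAA against BSS at day 7, 1 for DEX against TAA at day 7 and 1 for TAA between the days. In comparisons where the same numbers did not all match, the replicate block gave 0 for TAA against BSS at day 7 and 1 at day 30. It gave 3 for DEX against TAA at day 30 and 8 for TAA between the days. In DEX retinas between the days, where the same numbers did match, it brought Prkca 1427562_a_at to a limma adjusted p of 0.031. The block changed no other count by over 1.5 times.

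With each array left out in turn, the counts ran over 0 to 1 for DEX and 0 to 22 for TAA against BSS at day 7, 0 to 2009 for DEX against BSS at day 30, 0 to 8 and 0 to 3023 for DEX against TAA at days 7 and 30, and 0 to 5 for BSS, 2 to 2874 for DEX and 0 to 33 for TAA between the days. For the DEX and TAA interactions they ran over 0 to 13 and 0 to 2.

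The median difference of the members moved by more than the spread between replicates in some settings. For TAA day 30 against day 7 it was -0.15 under quantile normalization, -0.14 with array weights, -0.13 without the 3 arrays, -0.30 with 1 probe set per gene and -0.28 in the upper part by interquartile range. For TAA against BSS at day 30 it was -0.022 under quantile normalization and -0.026 without the 3 arrays. Without the 3 arrays it was 0.11 for TAA against BSS at day 7, 0.021 for DEX against TAA at day 7 and 0.064 for BSS between the days. With 1 probe set per gene it was 0.24 for DEX against BSS at day 7 and 0.086 for BSS between the days. The TAA interaction median was -0.19 under quantile normalization and -0.44 with 1 probe set per gene. The DEX interaction median was -0.30 without the 3 arrays and -0.41 with 1 probe set per gene. DEX against TAA at day 30 had -0.078 with array weights. With each array left out the medians ran over 0.12 to 0.22 for TAA against BSS at day 7, -0.15 to -0.026 at day 30, -0.14 to -0.046 for DEX against BSS at day 30, -0.095 to 0.021 and -0.061 to 0.034 for DEX against TAA at days 7 and 30, and -0.035 to 0.064 for BSS, -0.25 to -0.18 for DEX and -0.32 to -0.13 for TAA between the days. They ran over -0.30 to -0.19 and -0.34 to -0.22 for the DEX and TAA interactions. The cause was not tested.

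The 45 member differences with an unadjusted p under 0.05 kept their sign in 713 alternative fits, and 31 of these fits changed the side of the adjusted threshold. These differences were picked for their small p. Over all 209 member differences, leaving out 1 array brought 117 to under 0.5 of their value or past 0, and 66 of them turned sign. Prkca 1450945_at and Lrtm1 1444429_at in DEX retinas between the days lost their calls under quantile normalization (limma adjusted p of 0.0963 and 0.0593) and with the compared groups alone (0.123 and 0.116).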
